A study of Homo sapiens with 16 samples.

Results

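The autophagy genes examined here were a list of 40 genes of the autophagy machinery, chosen by gene name, and 39 of them were present in all 4 of the authors' deposited tables, among 19344 genes common to those tables and 23396 in any of them. The absent gene was MAP1LC3A, which encodes an LC3 protein. The material was mRNA of U2OS, a human osteosarcoma cell line. Its cells had received either a control siRNA (siControl) or a siRNA directed at RFX7 (siRFX7), RFX7 being a transcription factor, and had then been exposed for 24 h to DMSO or to Nutlin-3a at 10 µM. Nutlin-3a keeps MDM2 from binding p53 and thereby raises p53 levels. The 4 resulting groups, siControl with DMSO, siControl with Nutlin-3a, siRFX7 with DMSO and siRFX7 with Nutlin-3a, comprised 4 libraries each. All come from 1 cell line, and the labels do not say whether the libraries of a group were separate cultures, so errors may be technical.

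Each table compares a pair of groups and holds no value of a single library. Level is therefore given as the mean normalised read count of a group, rebuilt from the base mean (the authors' mean normalised count over the libraries compared) and the fold change, and errors are the authors' standard errors (SE) of the log2 fold change. A gene is said to be called, or to have risen or fallen, when its adjusted p (DESeq2 Wald test, Benjamini-Hochberg over every gene in the table) was under 0.05. The base means of a table summed to between 27946376 and 35311111 normalised counts. RFX7, the siRNA target, stood at a log2 fold change of -2.42 ± 0.07 (SE) with siRFX7 under DMSO (authors' deposited table). Its sign helped to set the direction of the comparisons, so only the size of this change bears on the labels. All 10 mesenchymal and osteoblast-lineage markers were present, although COL1A2 (base mean at most 13.2) and BGLAP (at most 4.3) were low. Of other cell types, 3 of 4 epithelial markers were present (EPCAM at 184 to 214), 1 of 4 blood markers (PTPRC, 5.2) and 3 of 3 endothelial markers (at most 17.8). The part of these markers in the results was not tested.

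As background, macroautophagy encloses cytoplasm, protein aggregates or organelles in a double-membraned autophagosome that fuses with the lysosome. A kinase complex built on ULK1 starts the process, a lipid kinase complex built on PIK3C3 and BECN1 marks the forming membrane with phosphatidylinositol 3-phosphate, and WIPI proteins read that mark. Proteins of the ATG8 family (LC3 and GABARAP) are then coupled to the membrane lipid by a ubiquitin-like conjugation system, and receptors such as SQSTM1 (p62) tie cargo to them. The transcription factors TFEB and TFE3 drive lysosomal and autophagy genes, and p53 is known to induce several autophagy genes.

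Positions of the 7 genes given below with all group means are from GENCODE 29 on GRCh38: SQSTM1 (ENSG00000161011) at chr5:179806398-179838078, NBR1 (ENSG00000188554) at chr17:43170481-43211689, WIPI1 (ENSG00000070540) at chr17:68420948-68457513 on the minus strand, GABARAPL1 (ENSG00000139112) at chr12:10212458-10223130, ATG16L2 (ENSG00000168010) at chr11:72814308-72843674, TFEB (ENSG00000112561) at chr6:41683978-41736259 on the minus strand and ATG4A (ENSG00000101844) at chrX:108091668-108154671.

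Levels spanned a wide range in control cells. Per kb of annotated exon, LAMP1, a heavily glycosylated protein of the lysosomal membrane, had the highest rebuilt mean, 4646 normalised counts per kb in siControl with DMSO. SQSTM1 followed at 4218.5 and TFE3 at 2178. At the other end were ULK2 (17.6), ATG10 (29.9) and TFEB (32.5). With Nutlin-3a, SQSTM1 stood at 7506 and LAMP1 at 4965 normalised counts per kb, so SQSTM1 then had the highest level of the list. GABARAP was low for its family, at 44.4 normalised counts per kb against 605.7 for GABARAPL1, 864.6 for GABARAPL2 and 569 for MAP1LC3B. In GENCODE 29, 30.5% of its exonic bases are also exon of AC120057.2 on the same strand, and 43.5% of those of ATG9A are exon of AC068946.2. Reads that fall in shared exons can be left uncounted, and the part of this in the low GABARAP level was not tested. These 2 genes were the members with such an overlap.

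**Figure D1:**
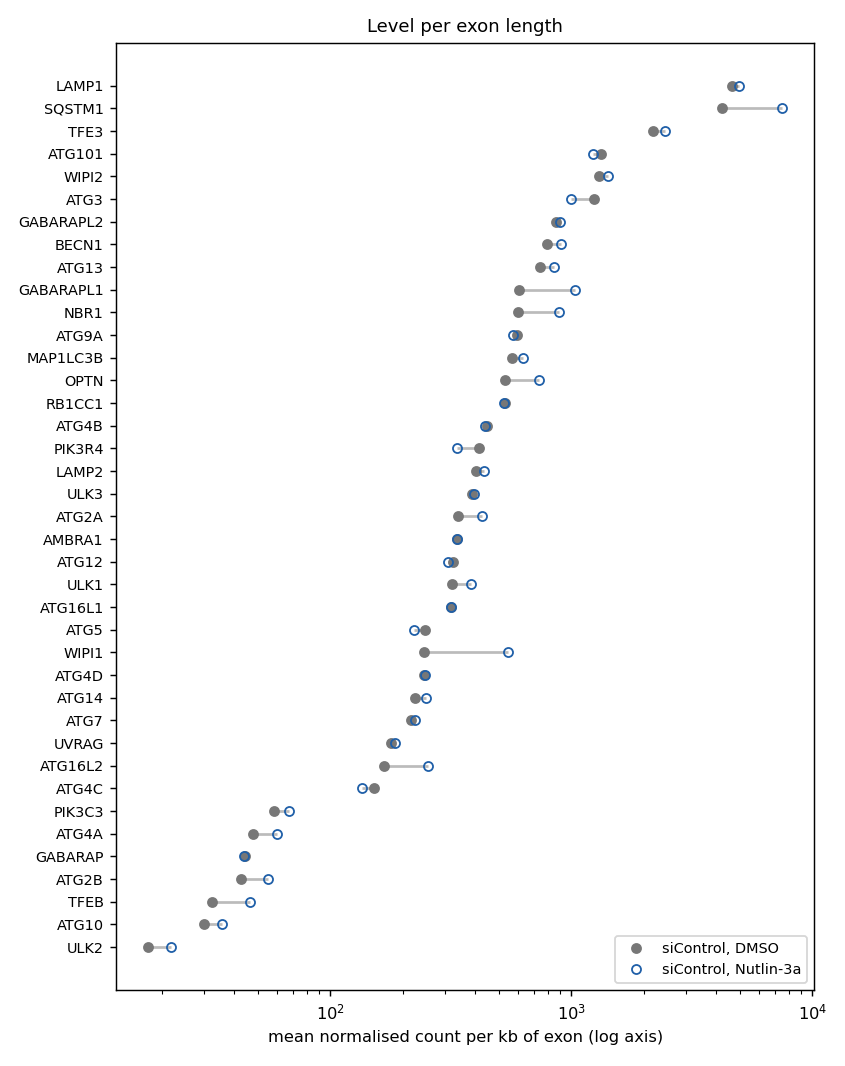
Rebuilt mean normalised count per kb of exon (log axis) for 39 autophagy genes in siControl cells, with DMSO (filled) and with Nutlin-3a (open). SQSTM1 moves from 4218.5 to 7506 and WIPI1 from 246 to 547, while most other genes stay close to their DMSO level.

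The first comparison asked what Nutlin-3a did to autophagy genes in siControl cells. WIPI1, SQSTM1, GABARAPL1, ATG16L2, NBR1 and TFEB rose by at least 0.5 on the log2 scale, and the conjugation enzyme ATG3 and the lipid kinase subunit PIK3R4 fell. With siControl, the authors' deposited table had 22 of 39 members called, 19 higher and 3 lower. Of all 23353 genes there, 37.9% were called, 18.3% higher and 19.6% lower. Among those whose base mean reached 100, which includes all 39 members, 56.3% were called, so the share of members called (22 of 39) lay near that background. Called members were mostly higher, while calls over all genes were split nearly evenly. The median log2 fold change of the 39 members was 0.11, beside 0.01 over all genes of the authors' deposited table. It was -0.03 over genes whose base mean reached 100, for which calls were not split by direction. The members were chosen with earlier results of these data known. A change of 0.5 or more was called for 6 members, and for 12.3% of all genes.

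In siRFX7 cells the authors' deposited table gave 23 of 39 members called, 17 higher and 6 lower, with a median of 0.14. Over all 21382 genes, 39.1% were called there, 18.7% higher and 20.3% lower, and 56.3% of genes whose base mean reached 100. Members called with a change of at least 0.5 numbered 5, beside 13.2% of all genes. Called in both siRNA backgrounds were 15 of 39 members higher and 3 lower, and 0 in opposite directions. Over the 21339 genes of both tables, 14.8% were called higher in both, 17.0% lower in both and 0.0750% in opposite directions. Where the base mean reached 100 in both, 19.9% of genes were higher and 26.9% lower in both. These tables share no library. Across the 39 genes their log2 fold changes had a Pearson r of 0.931, against 0.949 over 12839 genes whose base mean reached 100; the genes were measured in the same libraries and are not independent.

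**Figure D2:**
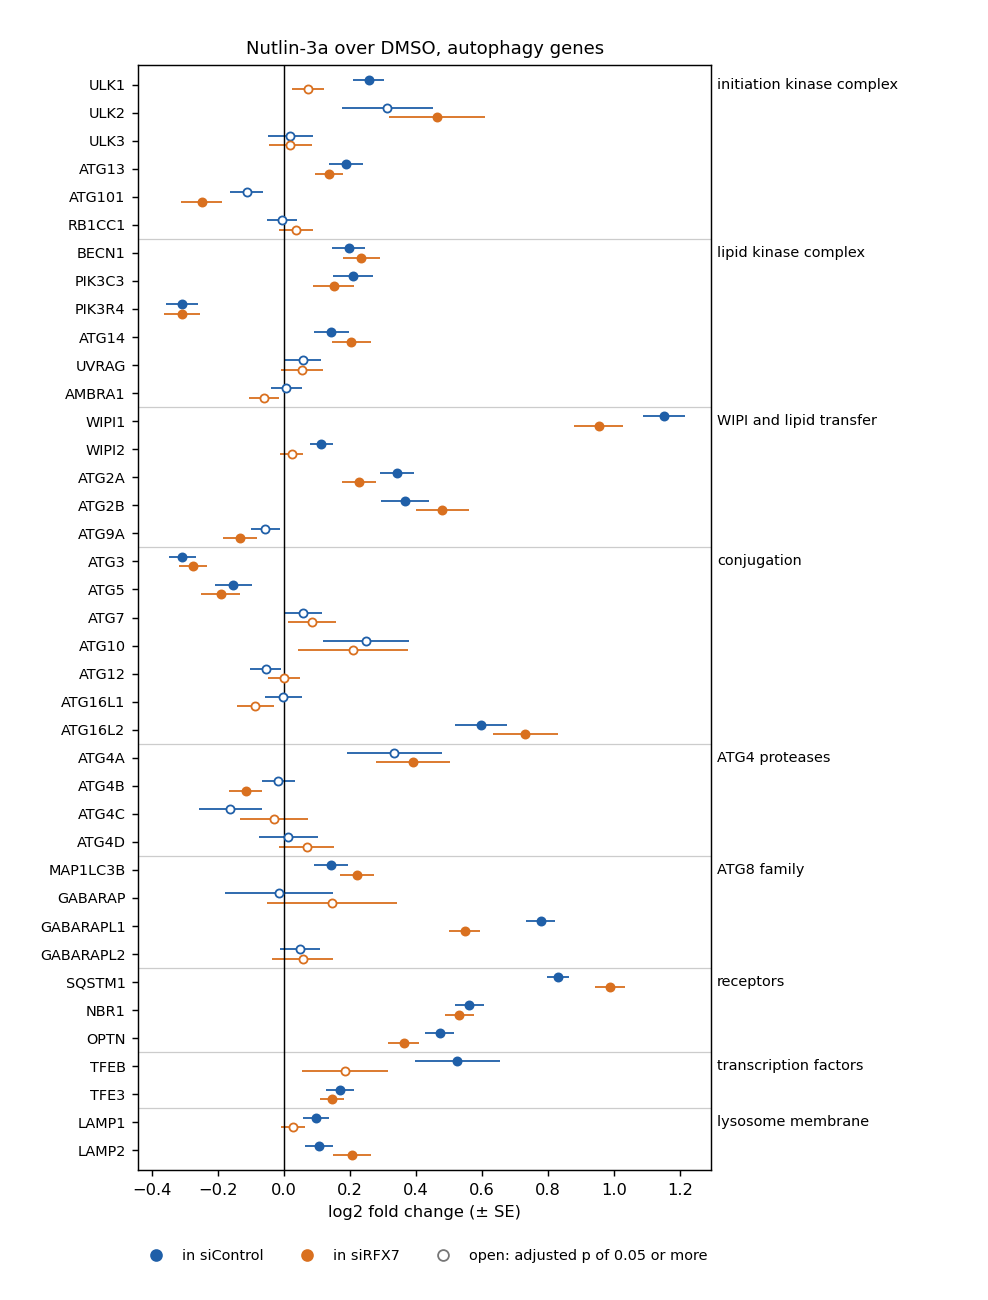
Log2 fold change of Nutlin-3a over DMSO with its SE for 39 autophagy genes grouped by role, in siControl (blue) and siRFX7 (orange) cells; open points were not called. WIPI1 (1.15 in siControl) and the 3 receptors lie to the right in both, and ATG3 and PIK3R4 lie near -0.3 in both.

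All 3 cargo receptors rose in both backgrounds. SQSTM1, which binds ubiquitin and the ATG8 proteins, had rebuilt means of 14664 normalised counts in siControl with DMSO, 26090 in siControl with Nutlin-3a, 11238 in siRFX7 with DMSO and 22307 in siRFX7 with Nutlin-3a. Both Nutlin-3a groups lay above both DMSO groups, and within each treatment siRFX7 lay lower. Its Nutlin-3a response was 0.83 ± 0.03 (SE, adjusted p 2.29e-137) in siControl and 0.99 ± 0.04 (adjusted p 1.5e-109) in siRFX7 (authors' deposited tables). In GENCODE 29, 39.8% of its exonic bases face exons of MRNIP on the other strand, whose base mean was at most 487 and which was called in none of the authors' deposited tables.

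NBR1, a receptor related to SQSTM1 in its domain plan, followed the same order of groups. Its rebuilt means were 3036 in siControl with DMSO, 4481 in siControl with Nutlin-3a, 2639 in siRFX7 with DMSO and 3817 in siRFX7 with Nutlin-3a. Nutlin-3a raised it by 0.56 ± 0.04 (SE) and 0.53 ± 0.05 on the log2 scale in siControl and siRFX7 (authors' deposited tables). OPTN, a receptor known from the clearance of mitochondria and bacteria, rose by 0.47 ± 0.04 and 0.36 ± 0.05 (authors' deposited tables).

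Of the 5 WIPI and lipid transfer genes, 4 rose in siControl, and 3 rose and 1 fell in siRFX7. WIPI1, a reader of phosphatidylinositol 3-phosphate, had the largest Nutlin-3a response of the 39 genes in siControl. Its rebuilt means were 465 normalised counts in siControl with DMSO, 1034 in siControl with Nutlin-3a, 474 in siRFX7 with DMSO and 918 in siRFX7 with Nutlin-3a, so both treated groups stood apart from both untreated ones. The log2 fold changes (authors' deposited tables) were 1.15 ± 0.06 (SE, adjusted p 7.36e-72) and 0.95 ± 0.07 (adjusted p 9.61e-36). In GENCODE 29, 28.5% of the exonic bases of WIPI1 face exons of ARSG on the other strand. ARSG had a base mean of at most 41.8 and was called in none of the authors' deposited tables. In all, 14 members share exon bases with the other strand. The largest share was that of ATG101, 42.7%, facing AC025259.1, which was in none of the authors' deposited tables. For ATG7 it was 32.2%, facing VGLL4 (base mean 1060.5 to 1599.2). The part of these overlaps in the members' values was not tested. The WIPI1 paralogue WIPI2, at rebuilt means of 6204 and 6710 in siControl, rose by 0.11 ± 0.04 there and stood at 0.02 ± 0.04 in siRFX7 (authors' deposited tables). The lipid transfer proteins ATG2A (0.34 ± 0.05 and 0.23 ± 0.05) and ATG2B (0.37 ± 0.07 and 0.48 ± 0.08) rose in both backgrounds (authors' deposited tables). ATG9A, the membrane scramblase, stood at -0.06 ± 0.04 in siControl and was called lower in siRFX7, at -0.13 ± 0.05 (adjusted p 0.0255, authors' deposited tables).

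In the ATG8 family 2 of the 4 measured genes rose in each background, MAP1LC3B and GABARAPL1. GABARAPL1 had rebuilt means of 1810 normalised counts in siControl with DMSO, 3102 in siControl with Nutlin-3a, 2183 in siRFX7 with DMSO and 3197 in siRFX7 with Nutlin-3a. The treated means lay close together, and the siRFX7 mean with DMSO lay above its control. In the authors' deposited tables GABARAPL1 rose by 0.78 ± 0.05 (SE, adjusted p 8.88e-65) in siControl and 0.55 ± 0.05 (adjusted p 2.9e-30) in siRFX7. MAP1LC3B, whose lipidated protein is the usual marker of autophagosomes, rose by 0.14 ± 0.05 and 0.22 ± 0.05 (authors' deposited tables). GABARAP (-0.02 ± 0.16 in siControl) and GABARAPL2 (0.05 ± 0.06 in siControl, 0.06 ± 0.09 in siRFX7) were not called (authors' deposited tables). Reads can be shared between MAP1LC3B and its near-identical copy MAP1LC3B2 (base mean 283 to 370) and between GABARAPL1 and GABARAPL3 (at most 35.4).

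The conjugation genes did not move together. Of 7, 1 rose and 2 fell in both backgrounds. ATG16L2, a paralogue of the scaffold that places the conjugation complex on the membrane, had rebuilt means of 554 in siControl with DMSO, 838 in siControl with Nutlin-3a, 419 in siRFX7 with DMSO and 697 in siRFX7 with Nutlin-3a. It rose by 0.60 ± 0.08 (SE, adjusted p 6.02e-13) and 0.73 ± 0.10 (adjusted p 1.17e-12, authors' deposited tables). A share of 20.6% of its exonic bases faces exons of FCHSD2 on the other strand. FCHSD2 had base means of 2281 to 2813, and its Nutlin-3a responses were 0.34 ± 0.04 and 0.29 ± 0.04 (authors' deposited tables); whether counting used strand is not given in the sources used here, so ATG16L2 is uncertain to that extent. ATG16L1, the main scaffold, stood at -0.00 ± 0.06 and -0.09 ± 0.06, uncalled (authors' deposited tables). ATG3, the E2-like enzyme that attaches the ATG8 proteins to lipid, fell by 0.31 ± 0.04 and 0.28 ± 0.04 on the log2 scale (authors' deposited tables). ATG5, which is joined to ATG12, fell by 0.15 ± 0.06 and 0.19 ± 0.06 there.

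Subunits of the lipid kinase complex went in different directions with Nutlin-3a. Of 6, 3 rose and 1 fell in each background. The catalytic subunit PIK3C3 rose by 0.21 ± 0.06 (SE) and 0.15 ± 0.06, BECN1 by 0.20 ± 0.05 and 0.23 ± 0.06 and ATG14, the autophagy-specific subunit, by 0.14 ± 0.05 and 0.20 ± 0.06 (authors' deposited tables). The regulatory subunit PIK3R4 fell by 0.31 ± 0.05 in siControl and by 0.31 ± 0.05 in siRFX7 (authors' deposited tables). Its rebuilt means were 2081 and 1680 normalised counts in siControl, and 2134 and 1724 in siRFX7.

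In the initiation complex, 2 of 6 genes rose in siControl, and 2 rose and 1 fell in siRFX7. The kinase ULK1 rose by 0.26 ± 0.05 (SE, adjusted p 4.21e-07) in siControl and stood at 0.07 ± 0.05 (adjusted p 0.26) in siRFX7 (authors' deposited tables). ATG13, which links the kinase to its partners, rose by 0.19 ± 0.05 and 0.14 ± 0.04 (authors' deposited tables). ATG101, the partner of ATG13, fell by 0.25 ± 0.06 in siRFX7 and stood at -0.11 ± 0.05 in siControl (authors' deposited tables). The low-count kinase ULK2 stood at 0.31 ± 0.14 in siControl and rose by 0.46 ± 0.15 in siRFX7 (authors' deposited tables).

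None of the 4 ATG4 proteases, which trim the ATG8 proteins, was called in siControl. Of all 23353 genes there, 37.9% were called, and 56.3% of those whose base mean reached 100. ATG4A stood highest of the 4, at 0.33 ± 0.14 (SE, adjusted p 0.0512), and ATG4C lowest, at -0.16 ± 0.09 (authors' deposited table). In siRFX7, ATG4A rose by 0.39 ± 0.11 (SE) and ATG4B fell by 0.12 ± 0.05 (adjusted p 0.0493, authors' deposited table). The ATG4A responses were not called different, at 0.06 ± 0.18 for siRFX7 minus siControl. Both transcription factors rose in siControl. TFEB had rebuilt means of 145 in siControl with DMSO, 209 in siControl with Nutlin-3a, 178 in siRFX7 with DMSO and 203 in siRFX7 with Nutlin-3a. Its response was 0.53 ± 0.13 (SE, adjusted p 0.000209) in siControl and 0.18 ± 0.13 (adjusted p 0.28) in siRFX7 (authors' deposited tables). The far more abundant TFE3 rose by 0.17 ± 0.04 and 0.15 ± 0.04 (authors' deposited tables). LAMP1 and LAMP2 rose by 0.10 ± 0.04 and 0.11 ± 0.04 in siControl; in siRFX7 LAMP2 rose by 0.21 ± 0.06 and LAMP1 stood at 0.03 ± 0.04 (authors' deposited tables).

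The second comparison asked how the same genes differed between siRFX7 and siControl cells. With a single siRFX7 condition, an effect of lower RFX7 cannot be told apart from other effects of the siRNA. ATG4A rose most, ATG12 and several other machinery genes rose, and SQSTM1, NBR1, ATG16L2 and GABARAPL2 fell, under both treatments. Under DMSO, 23 of 39 members were called (authors' deposited table), 16 higher and 7 lower, with a median log2 fold change of 0.07 beside -0.00 over all genes. Of all 19511 genes, 37.4% were called, 19.9% higher and 17.5% lower, and 49.7% of those whose base mean reached 100, where 23 of 38 members were called. Under Nutlin-3a, 14 of 39 were called (authors' deposited table), 8 higher and 6 lower, with a median of 0.04 beside -0.01. There, 32.6% of 20335 genes were called, 17.2% higher and 15.4% lower, and 45.3% of those whose base mean reached 100, where 14 of 38 members were. A change of at least 0.5 was called for 1 member in each table, beside 8.40% of all genes under DMSO and 6.98% under Nutlin-3a.

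Under both treatments 8 of 39 members were called higher and 4 lower, and 0 in opposite directions. Over the 19346 genes of both tables, 14.2% were higher in both, 11.9% lower in both and 0.134% opposite. Where the base mean reached 100 in both, these shares were 20.2% higher and 16.0% lower, so the members' counts lay near them. These tables share no library either, and the log2 fold changes of the 39 genes had a Pearson r of 0.888, against 0.896 over 12928 genes. All 8 members called higher under Nutlin-3a were called higher under DMSO too; over all genes 21.3% of those higher under Nutlin-3a were not. Of the 16 called higher under DMSO, 8 were not called under Nutlin-3a, among them ULK1, GABARAPL1 and ATG13, and over all genes 28.5% were not (25.8% where the base mean reached 100). The siRFX7 and Nutlin-3a comparisons use the same groups as controls, so their values for a gene are given side by side and not correlated.

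**Figure D3:**
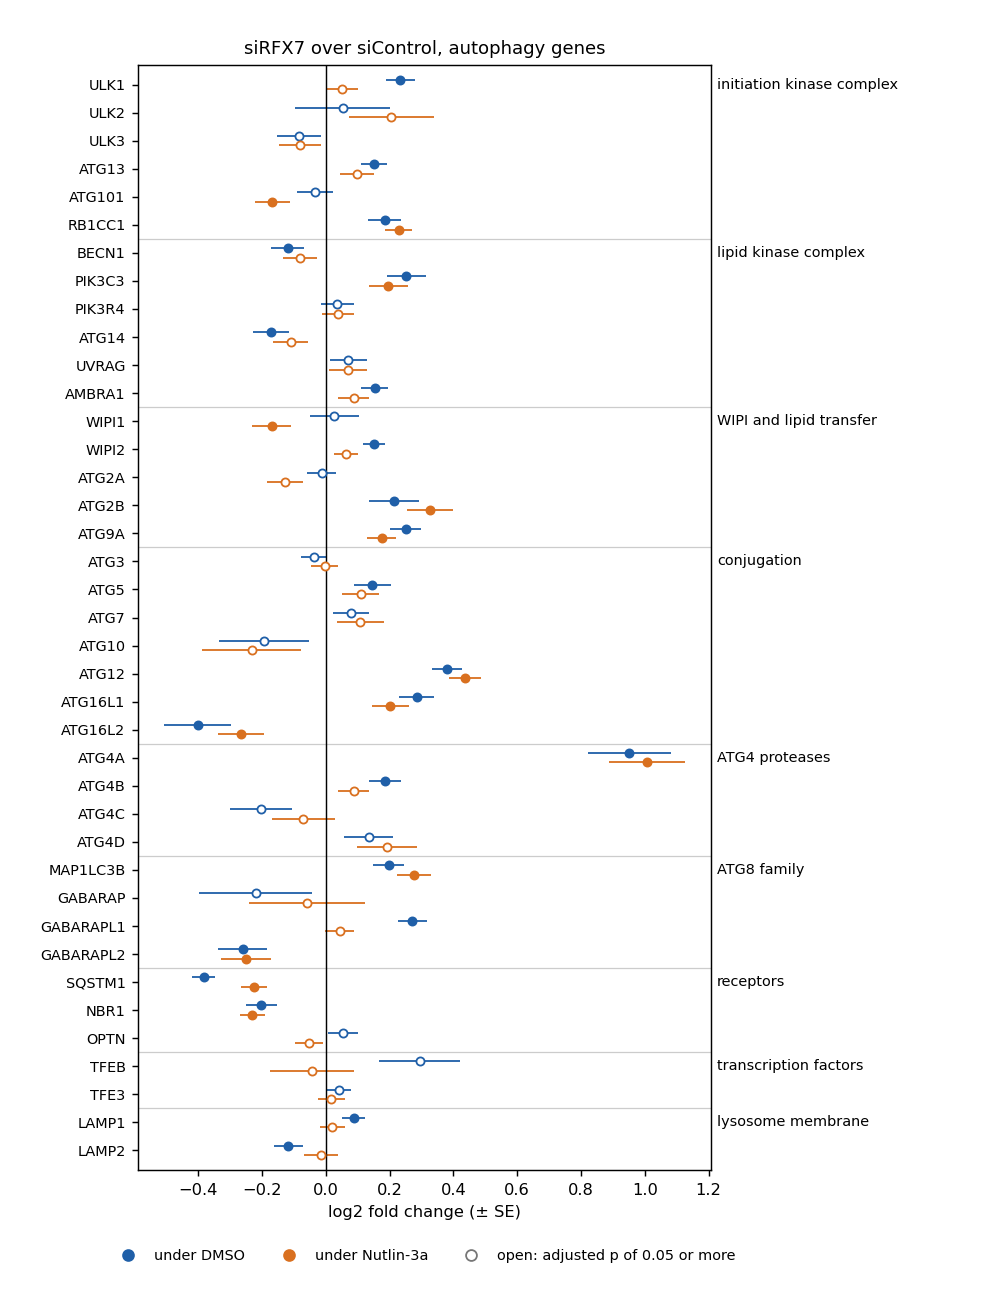
Log2 fold change of siRFX7 over siControl with its SE for 39 autophagy genes grouped by role, under DMSO (blue) and Nutlin-3a (orange); open points were not called. ATG4A stands apart at 0.95 and 1.01, ATG12 lies at 0.38 and 0.44, and ATG16L2 and SQSTM1 lie below 0 in both.

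ATG4A, a protease with a preference for the GABARAP proteins, was the member that changed most. Its rebuilt means were 110 normalised counts in siControl with DMSO, 139 in siControl with Nutlin-3a, 214 in siRFX7 with DMSO and 279 in siRFX7 with Nutlin-3a. Both siRFX7 groups lay above both siControl groups. The authors' deposited tables gave 0.95 ± 0.13 (SE, adjusted p 4.92e-12) under DMSO and 1.01 ± 0.12 (adjusted p 1.83e-15) under Nutlin-3a. Its relative ATG4B rose by 0.18 ± 0.05 under DMSO and stood at 0.09 ± 0.05 under Nutlin-3a (authors' deposited tables).

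Among the conjugation genes, ATG12, the ubiquitin-like protein joined to ATG5, rose by 0.38 ± 0.05 (SE, adjusted p 9e-15) under DMSO and 0.44 ± 0.05 (adjusted p 2.99e-17) under Nutlin-3a (authors' deposited tables). Its rebuilt means were 1395 and 1342 in siControl and 1815 and 1815 in siRFX7, so both siRFX7 means lay above both siControl means, and its Nutlin-3a response was called in neither background. A share of 8.7% of its exonic bases faces exons of AP3S1, which fell by 0.51 ± 0.04 and 0.39 ± 0.04 with siRFX7 (authors' deposited tables). ATG16L1 rose by 0.28 ± 0.05 and 0.20 ± 0.06, whereas its paralogue ATG16L2 fell by 0.40 ± 0.11 and 0.27 ± 0.07 (authors' deposited tables). The facing gene FCHSD2 stood on the other side, at 0.12 ± 0.05 (called) and 0.07 ± 0.04 (not called, authors' deposited tables).

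The receptors SQSTM1 and NBR1 fell and OPTN was not called. SQSTM1 fell by 0.38 ± 0.04 (SE, adjusted p 3.39e-25) under DMSO and 0.23 ± 0.04 (adjusted p 7.99e-07) under Nutlin-3a (authors' deposited tables). NBR1 fell by 0.20 ± 0.05 and 0.23 ± 0.04 (authors' deposited tables). OPTN stood at 0.05 ± 0.05 and -0.05 ± 0.04 there (authors' deposited tables). In the ATG8 family GABARAPL2 fell by 0.26 ± 0.08 and 0.25 ± 0.08 while MAP1LC3B rose by 0.20 ± 0.05 and 0.28 ± 0.05 (authors' deposited tables). GABARAPL2 had rebuilt means of 1178 and 1219 in siControl and 983 and 1022 in siRFX7, ordered by siRNA rather than by treatment.

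**Figure D4:**
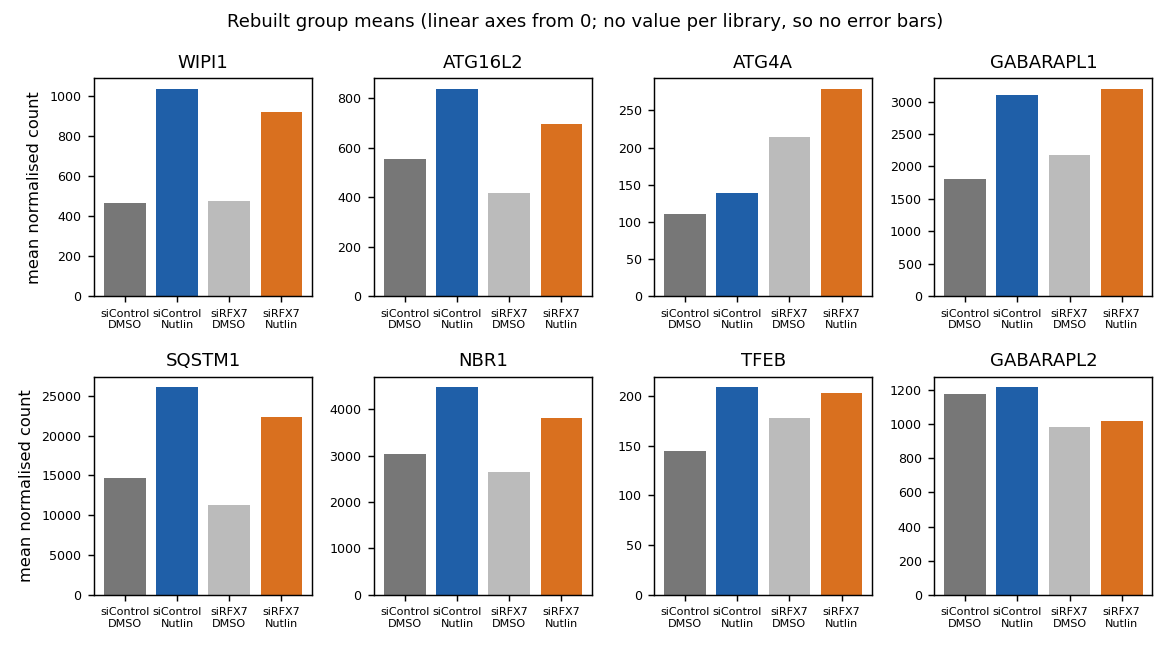
Rebuilt mean normalised counts of 8 autophagy genes in the 4 groups, on linear axes from 0 and on the scale of the siControl table; the tables hold group means only, so no error is drawn. WIPI1, SQSTM1 and NBR1 are separated by treatment, ATG4A and GABARAPL2 by siRNA.

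In the initiation, lipid kinase and WIPI groups no siRFX7 effect exceeded 0.33 in size on the log2 scale (authors' deposited tables). RB1CC1, the large scaffold of the initiation complex, rose by 0.18 ± 0.05 (SE) and 0.23 ± 0.04 (authors' deposited tables). PIK3C3 rose by 0.25 ± 0.06 and 0.20 ± 0.06, and ATG2B by 0.21 ± 0.08 and 0.33 ± 0.07 (authors' deposited tables). ATG9A rose by 0.25 ± 0.05 and 0.18 ± 0.05 there. BECN1 and ATG14 were called lower under DMSO, by 0.12 ± 0.05 (adjusted p 0.0498) and 0.17 ± 0.06. Neither was called under Nutlin-3a, where they stood at -0.08 ± 0.05 and -0.11 ± 0.05 (authors' deposited tables). ULK1 rose by 0.23 ± 0.05 under DMSO and stood at 0.05 ± 0.05 under Nutlin-3a (authors' deposited tables). TFEB (0.29 ± 0.13, adjusted p 0.054 under DMSO) and TFE3 (0.04 ± 0.04) were not called, nor were they under Nutlin-3a, at -0.04 ± 0.13 and 0.02 ± 0.04 (authors' deposited tables). AMBRA1, a regulator of the BECN1 complex, rose by 0.15 ± 0.04 under DMSO and stood at 0.09 ± 0.05 under Nutlin-3a (authors' deposited tables). Lowest in their groups under DMSO without being called were the kinase ULK3 (-0.08 ± 0.07), ATG2A (-0.01 ± 0.05) and the protease ATG4C (-0.20 ± 0.10, and -0.07 ± 0.10 under Nutlin-3a; authors' deposited tables). WIPI1 and ATG101 were called lower under Nutlin-3a only, each at -0.17, with SEs of 0.06 and 0.05, and stood at 0.03 ± 0.08 and -0.03 ± 0.06 under DMSO (authors' deposited tables). The lysosomal membrane proteins parted under DMSO, LAMP1 at 0.09 ± 0.04 (called higher) and LAMP2 at -0.12 ± 0.05 (called lower), and neither was called under Nutlin-3a, at 0.02 ± 0.04 and -0.02 ± 0.05 (authors' deposited tables). In all, 7 members were called in none of the 4 tables: ATG10, ATG4C, ATG4D, ATG7, GABARAP, ULK3 and UVRAG. The share of all genes called in none was not counted, so this number is a description only.

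The third comparison asked whether the Nutlin-3a response of each gene differed between siRFX7 and siControl cells. The response in siRFX7 minus that in siControl was tested with a two-sided normal test from the deposited standard errors, adjusted over 21339 genes. Of 39 members 1 differed, GABARAPL1, with a lower response in siRFX7. Over all genes the share that differed was 0.937% (0.764% responding less in siRFX7, 0.173% more), and 1.45% of those whose base mean reached 100, so 1 member is near the background. The difference for GABARAPL1 was -0.23 ± 0.06 (SE, 95% interval -0.36 to -0.10, Benjamini-Hochberg adjusted p 0.0448), which does not pass at 0.01. With Nutlin-3a the siRFX7 effect on its level was not called, at 0.04 ± 0.05 (authors' deposited table), and with DMSO it was higher by 0.27 ± 0.05.

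**Figure D5:**
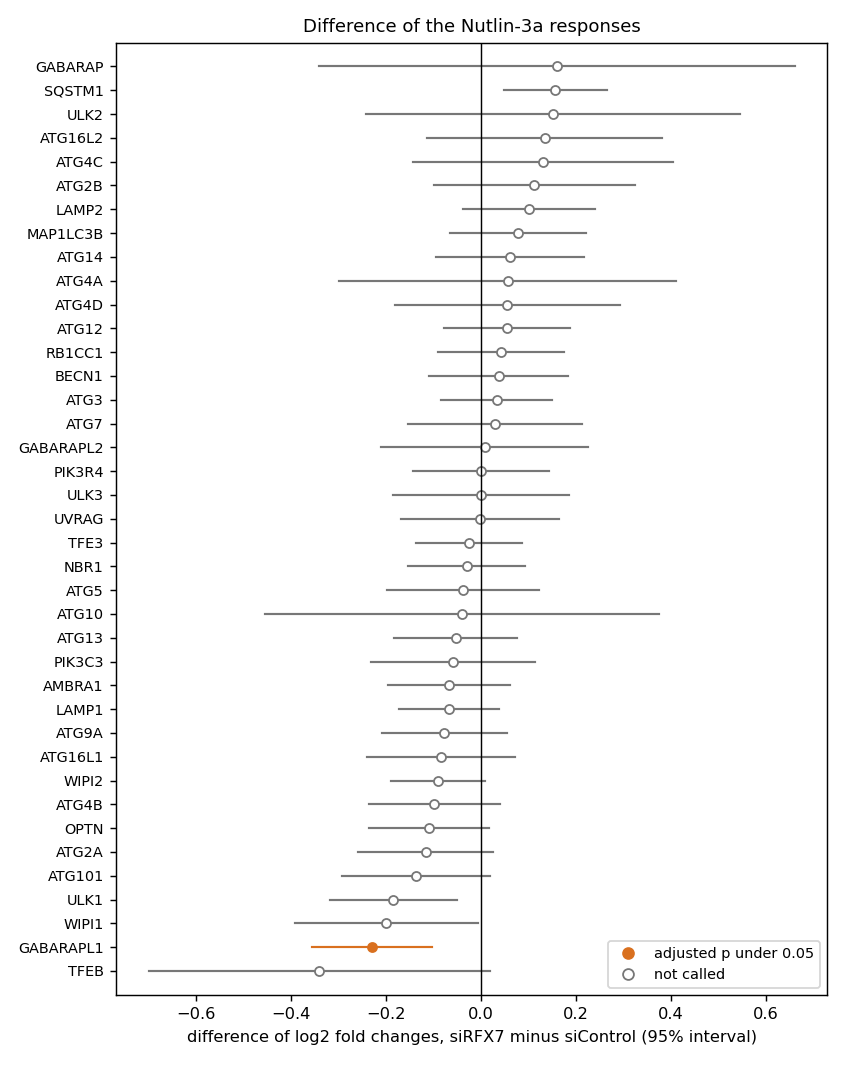
Difference of the Nutlin-3a log2 fold changes, siRFX7 minus siControl, with 95% intervals for 39 autophagy genes in order of size. The interval of GABARAPL1 lies below 0 and is the called one; that of TFEB is wide, from -0.70 to 0.02.

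For the other 38 genes no difference was called, which does not show that their responses were alike. At an unadjusted p under 0.05 there were 4 of 39, GABARAPL1, SQSTM1, ULK1 and WIPI1, beside 1349 of all 21339 genes. The estimate for SQSTM1 was 0.16 ± 0.06 (95% interval 0.05 to 0.26, adjusted p 0.235), that for ULK1 -0.18 ± 0.07 (-0.32 to -0.05, adjusted p 0.303) and that for WIPI1 -0.20 ± 0.10 (-0.39 to -0.01, adjusted p 0.748). The most negative estimate was that of TFEB, -0.34 ± 0.18 (-0.70 to 0.02, adjusted p 0.855). For 24 members both bounds of the 95% interval lay within 0.25 of 0 on the log2 scale. Among these were NBR1 (-0.03 ± 0.06), PIK3R4 (0.00 ± 0.07) and TFE3 (-0.03 ± 0.06). Signs were mixed, with 21 of 39 differences below 0. Role by role, the other extremes that were not called spanned ULK2 at 0.15 ± 0.20, AMBRA1 at -0.07 ± 0.07 to ATG14 at 0.06 ± 0.08, and ATG2B at 0.11 ± 0.11. Among the conjugation genes and proteases they ran from ATG16L1 (-0.08 ± 0.08) to ATG16L2 (0.13 ± 0.13) and from ATG4B (-0.10 ± 0.07) to ATG4C (0.13 ± 0.14). GABARAP stood at 0.16 ± 0.26, OPTN at -0.11 ± 0.06, LAMP1 at -0.07 ± 0.05 and LAMP2 at 0.10 ± 0.07.

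Promoter windows are shown for 5 members in which a searched motif was found, whether or not the gene changed. RefSeq windows on GRCh38.p14, from 250 bases before to 50 after a gene start, existed for 35 of the 40 genes by symbol, 44 windows in all. They were searched on both strands for an RFX half-site (GTTGCCA or GTTGCTA), for the E-box TCACGTG that TFEB and TFE3 can bind, and for the p53 half-site consensus. The RFX half-site was in 3 of 35 members and in 7.87% of genes whose base mean reached 100, the E-box in 3 of 35 and 7.39%, and the p53 half-site in 1 of 35 and 7.5%. These counts are small, and a match is a description only.

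The members with an RFX half-site were NBR1 (chr17:43170159-43170458, plus strand), GABARAPL2 (chr16:75566129-75566428, plus strand) and PIK3R4 (chr3:130746780-130747079, minus strand), with capitals for the match. NBR1 and GABARAPL2 fell with siRFX7 under both treatments, and PIK3R4 stood at 0.04 ± 0.05 under both (authors' deposited tables).
NBR1: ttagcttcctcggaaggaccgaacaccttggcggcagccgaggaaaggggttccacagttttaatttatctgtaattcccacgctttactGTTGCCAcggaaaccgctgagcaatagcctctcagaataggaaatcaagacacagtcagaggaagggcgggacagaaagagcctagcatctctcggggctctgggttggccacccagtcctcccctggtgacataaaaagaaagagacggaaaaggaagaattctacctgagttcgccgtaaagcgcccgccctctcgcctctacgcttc
GABARAPL2: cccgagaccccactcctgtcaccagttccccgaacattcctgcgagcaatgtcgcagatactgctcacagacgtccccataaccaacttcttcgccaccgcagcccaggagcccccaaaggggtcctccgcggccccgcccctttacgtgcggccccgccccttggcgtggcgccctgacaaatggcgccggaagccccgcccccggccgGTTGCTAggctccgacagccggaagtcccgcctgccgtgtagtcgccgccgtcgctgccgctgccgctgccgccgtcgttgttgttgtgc
PIK3R4: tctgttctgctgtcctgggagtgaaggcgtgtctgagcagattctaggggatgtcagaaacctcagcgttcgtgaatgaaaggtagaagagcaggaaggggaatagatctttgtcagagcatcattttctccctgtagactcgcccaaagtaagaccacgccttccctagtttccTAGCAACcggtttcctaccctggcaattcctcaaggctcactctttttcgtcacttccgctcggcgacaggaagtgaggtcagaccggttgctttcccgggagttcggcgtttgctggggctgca

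The E-box was found at 6 places in LAMP1 (chr13:113296989-113297288, plus strand), in capitals below, and also in ATG3 and ATG14. With Nutlin-3a in siControl LAMP1 rose by 0.10 ± 0.04 and ATG14 by 0.14 ± 0.05, while ATG3 fell by 0.31 ± 0.04 (authors' deposited table). The p53 half-site was found in GABARAPL1 (chr12:10212627-10212926, plus strand), shown with that match in capitals.
LAMP1: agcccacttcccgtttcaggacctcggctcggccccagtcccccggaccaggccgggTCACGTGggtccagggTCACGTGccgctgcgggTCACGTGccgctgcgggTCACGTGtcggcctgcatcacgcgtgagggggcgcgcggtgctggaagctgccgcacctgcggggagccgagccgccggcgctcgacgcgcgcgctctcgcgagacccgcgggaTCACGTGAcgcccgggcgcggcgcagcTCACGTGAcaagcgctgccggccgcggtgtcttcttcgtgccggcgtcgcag
GABARAPL1: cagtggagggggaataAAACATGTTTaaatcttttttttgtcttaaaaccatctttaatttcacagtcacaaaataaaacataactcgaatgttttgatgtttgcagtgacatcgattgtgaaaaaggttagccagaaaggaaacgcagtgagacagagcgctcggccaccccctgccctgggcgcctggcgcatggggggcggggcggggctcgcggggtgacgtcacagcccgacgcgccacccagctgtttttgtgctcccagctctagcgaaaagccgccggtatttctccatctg

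The 3′ UTRs were searched for 2 short motifs that earlier work on these same data had picked out among genes changed by siRFX7. The heptamer GTATCTA was in the GENCODE 29 3′ UTRs of 2 of 40 members and of 8.75% of 11285 protein-coding genes whose base mean reached 100. The carriers were NBR1, lower with siRFX7, and PIK3C3, higher with it. The hexamer GACGTA was in 1 of 40 members, LAMP1, and 5.31% of those genes. ATG4A, ATG12, ATG16L2, SQSTM1 and GABARAPL2 carry neither.

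Further genes of the pathway came from a list of 68 autophagy and lysosome regulators, of which 66 were in all 4 tables. With Nutlin-3a, 35 rose and 3 fell of 67 in siControl, and 34 rose and 8 fell of 66 in siRFX7. With siRFX7, 20 rose and 5 fell of 66 under DMSO, and 19 rose and 11 fell under Nutlin-3a. Over all genes the shares called were 37.9%, 39.1%, 37.4% and 32.6% in that order. Where the base mean reached 100 they were 56.3%, 56.3%, 49.7% and 45.3%. The list was not filtered on base mean, which was as low as 3.5. With Nutlin-3a, 38 of 67 and 42 of 66 called lay above the shares over all genes and near or somewhat above the others. With siRFX7, 25 of 66 lay near the share over all genes and below the other. For 30 of 66 the share was above that over all genes and near the other. Medians were 0.16, 0.17, 0.05 and 0.05 on the log2 scale in that order of the authors' deposited tables. The p53 target DRAM1, a lysosomal membrane protein that promotes autophagy, rose with Nutlin-3a by 1.38 ± 0.06 (SE) in siControl and 1.35 ± 0.07 in siRFX7 (authors' deposited tables). ZFYVE1, which marks the membrane sites where autophagosomes form, rose by 1.02 ± 0.07 and 0.87 ± 0.05, and DEPP1, a FOXO-linked autophagy regulator, by 1.55 ± 0.11 and 1.22 ± 0.13 (authors' deposited tables).

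TFEC, a relative of TFEB, rose by 3.85 ± 0.23 and 4.03 ± 0.29 from low counts (base mean 103 in siControl, authors' deposited tables). It was the largest response of the list in both. DAPK1 (1.15 ± 0.36 in siControl) and ATG9B (1.38 ± 0.40 in siRFX7) were also called at over 1, at base means of 20.1 and 15.5 (authors' deposited tables). With siRFX7, NRBF2, a subunit of the lipid kinase complex, rose by 1.05 ± 0.07 under DMSO and 1.06 ± 0.06 under Nutlin-3a (authors' deposited tables). ATG9B was also called under Nutlin-3a, at 1.12 ± 0.35 from a base mean of 18.3 (authors' deposited table). DEPP1 fell by 0.45 ± 0.13 and 0.77 ± 0.12 with siRFX7 (authors' deposited tables). For TP53INP1, which aids autophagosome formation, the Nutlin-3a response was the only one of this list that differed, by -0.46 ± 0.10 (Benjamini-Hochberg adjusted p 0.00143), from 3.33 ± 0.07 in siControl to 2.87 ± 0.08 in siRFX7 (authors' deposited tables). A count of 1 of 66 lay near the share that differed over all genes, 0.937%, or 1.45% where the base mean reached 100.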

How the data were processed

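RNA of U2OS cells was made into 16 libraries with a stranded mRNA kit, per the labels' protocols. The authors deposited 4 DESeq2 tables, each comparing 2 groups of 4 libraries. The submitters' processing notes name hg38, Trimmomatic 0.39, cutadapt 2.10, SAMtools 1.10, featureCounts 1.6.5 and DESeq2 1.20.0; aligner, annotation and strand setting are not given in the sources used here. The base mean is a deposited signal, the mean normalised count over the libraries compared. Log2 fold changes and SEs on the log2 scale were used as deposited, and the deposited Wald statistic, a score, for checks only. Deposited p-values follow from that statistic by the normal distribution (two-sided), and adjusted p-values by Benjamini-Hochberg over a table's genes. Directions were set by the signs of RFX7, CDKN1A and MDM2.

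Group means were rebuilt as 2 × base mean / (1 + fold) and that times the fold. For each group the 2 tables that hold it gave means in a constant ratio, to within 5% for 100% of genes whose base mean reached 100, and the siRFX7 groups were put on the scale of the siControl table by that ratio. The difference of responses used both Nutlin-3a tables, which share no library, over all genes. Its SE is the root of the summed squares of their SEs. The test was run on simulated data drawn with the deposited SEs, which cannot show whether those SEs suit these data. Any of the 40 members could be named. Full values were given for members called with a change of at least 0.5 in any table or with a called difference, and values also for the largest and smallest change of each role in each comparison; other genes of the pathway were named when called at a change of at least 1 or with a called difference. Members and lists were chosen with earlier results of these data known. Depth enters through the SEs, and no value per library was used. Positions and exon lengths are from GENCODE 29 on GRCh38, where 99.9% of gene identifiers matched. Python 3.11.15, pandas 2.3.3 and scipy 1.17.1 were used.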

Additional observations from a re-analysis of the deposited data

Results flagged for a closer look

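The Nutlin-3a response differed between the siRNA backgrounds for 1 of 39 members and 1 of 66 other pathway genes. Both counts lay near the share over all 21339 genes, 0.937%, or 1.45% where the base mean reached 100. GABARAPL1 responded less in siRFX7, by -0.23 on the log2 scale, with a higher level under DMSO and a like level under Nutlin-3a. TP53INP1, from the list of other pathway genes, responded less by -0.46, with a like level under DMSO (-0.01 ± 0.10 for siRFX7 over siControl in the authors' deposited table) and a lower one under Nutlin-3a (-0.48 ± 0.05).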

How the results depend on the processing

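No paired analysis was possible because the tables hold no value per library, and for the same reason no replicate was left out. Requiring a log2 change of at least 0.25 lowered the counts of called members to 12 and 11 (Nutlin-3a in siControl and siRFX7) and 9 and 6 (siRFX7 under DMSO and Nutlin-3a), and those of the other pathway genes to 23, 27, 14 and 14 in that order. The share of all genes called at 0.25 was not counted, so these counts are a description only. At an adjusted p under 0.01 the difference of responses was called for 0 members, and GABARAPL1 (adjusted p 0.0448) was the member lost; its adjusted-p call held when the difference came from the siRFX7 tables, with a robust SD, with adjustment over genes whose base mean reached 100 and with centring. Dividing by the robust SD gave 2 of the other pathway genes. The other 40 of 50 recomputed counts and medians kept their direction and stayed within 1.5 times, or for a median within the median SE of the members. Centring each table on the median of the genes whose base mean reached 100 turned the sign of values near 0: ATG16L1 (0.0246), ATG4B (0.0102), GABARAP (0.0115) and RB1CC1 (0.0206) for Nutlin-3a in siControl, ATG12 (0.0243) in siRFX7 and PIK3R4 (-0.0019) for the difference; taken from the siRFX7 tables, the difference of ULK3 was 0.002. None of these 7 values was called before or after. Among recomputed values of single genes, 628 kept their direction and call, 18 lost the call and 10 gained it. Low counts (ULK2, ATG4A, TFEB, GABARAP, ATG10) limit precision, with SEs of 0.11 to 0.20.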

Other observations

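Across the 4 groups, the highest rebuilt mean fell in siRFX7 with Nutlin-3a for 16 members, in siControl with Nutlin-3a for 13, in siRFX7 with DMSO for 6 and in siControl with DMSO for 4. The same counts over all genes were not taken. The highest mean was at most 2.53 times the lowest (ATG4A), and the ratio was 1.08 for ULK3 and LAMP1.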
